A study of Mus musculus with 7 samples.

Results

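G1E-ER4 cells that had differentiated for 24 h in the presence of DTPA were compared with undifferentiated G1E-ER4 cells at 0 h. The DTPA group held 3 libraries and the 0 h group held 1, so the comparison drew on 4 of the 7 libraries of the series. The line is of mouse erythroid progenitors without GATA1, the transcription factor red cell precursors need in order to mature, and it carries GATA1 fused to the hormone-binding part of the estrogen receptor. It is 1 cell line, and its GATA1 activity comes from a transgene switched on by estradiol. All groups were grown with serum, erythropoietin and Kit ligand. The 0 h cells received neither estradiol nor DTPA. The DTPA cells received 100 nM β-estradiol to start differentiation and 50 µM DTPA, a chelator that binds zinc and other metal ions outside the cell, at the same moment. Estradiol, 24 h of culture and DTPA therefore separate the sides together and cannot be told apart by this comparison. The other 3 libraries are of cells given estradiol alone for 24 h, called the control here, and their values are set beside those of the DTPA group.

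The values are TPM, transcript levels scaled per gene length and to 1 fixed total for each library. Of 55367 gene symbols, 12016 reached 1 TPM at 0 h or on average under DTPA, and these were tested. Changes were fitted with limma on log2(TPM + 1), a scale that understates the change of genes near 0, and a gene was called where the adjusted p was under 0.05 and the change was at least 2-fold. Genes under 1 TPM at 0 h were tested only through their DTPA level and could not be called lower. Likewise, genes with a DTPA mean under 1 TPM were tested only through 0 h and could not be called higher. With 1 library at 0 h the spread comes from the 24 h groups, and the lone library is assumed to vary like them. An exact permutation test of 3 libraries against 1 has 4 arrangements and cannot give a two-sided p below 0.5. The labels call the libraries biological replicates and do not say whether cultures were started separately, so the p-values measure the spread between these libraries.

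As background, a red cell precursor that matures stops dividing, fills with hemoglobin, remodels its membrane and clears its organelles. Hemoglobin needs globin chains and heme, and heme needs iron. Zinc enters the cytosol through ZIP transporters (the Slc39 family) and leaves it through ZnT transporters (the Slc30 family). Metallothioneins are small proteins that bind zinc, and their genes are switched on by MTF1, a transcription factor that senses zinc and binds metal response elements in promoters.

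Under DTPA 1888 genes rose and 3318 fell, which is 15.7% and 27.6% of the genes tested, or 43.3% together, and 6810 were not called. Among the rises 675 reached 2 log2 units, 221 reached 3 and 36 reached 5, while among the falls these counts were 1312, 444 and 19. The median over all genes was -0.30 on the log2 scale, and the split of calls moved with scaling. Rises made up 36.3% of the calls on the deposited scale, 47.5% after median-of-ratios scaling (2413 rises and 2666 falls, with the median at -0.06) and 49.8% after quantile normalization (2586 and 2611, with the median at -0.02). Leaving the globin genes out of the total gave 39.8%, with 2056 rises and 3111 falls. In the control against 0 h, which uses the same 0 h library, 1760 genes (14.6%) were higher and 2892 (24.1%) lower. The filter did not use the control, so genes that reached 1 TPM only there are missing from this count. They are also missing from the comparison of DTPA with control. Between the DTPA and control libraries, called at an adjusted p under 0.05 with no minimum fold, 54.0% of genes differed, and 2472 genes (20.6%) were higher under DTPA and 4018 (33.4%) lower, a split that became 3327 and 3108 after median-of-ratios scaling and 3144 and 3140 after quantile normalization. The depth estimated from the steps of the low values was 17.59 M reads at 0 h and 19.79 to 21.19 M reads under DTPA. The labelled erythroid type was checked against Gata1, Klf1, Epor, Tfrc, Slc4a1, Alas2, the adult globins, Gypc, Rhag and Ank1, and all of these were present in each of the 4 libraries.

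**Figure D1:**
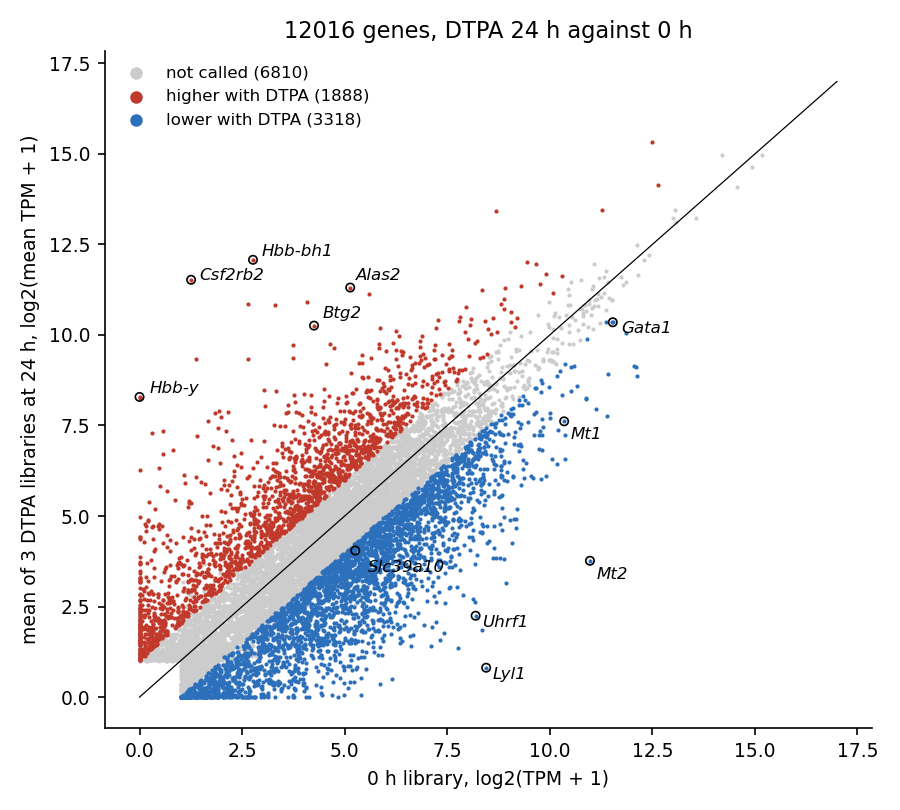
Level of each of the 12016 tested genes at 0 h (x axis, log2(TPM + 1), 1 library) against the mean of the 3 DTPA libraries (y axis, log2 of the mean TPM + 1), with the 1888 called rises, the 3318 called falls and the 6810 genes not called in separate colours. Genes off the diagonal changed most, with the beta-like globin Hbb-bh1 and the cytokine receptor subunit gene Csf2rb2 far above it and Mt2 and Lyl1 far below it.

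The genes that rose most included beta chains of cytokine receptors, embryonic globins and the host transcript of a red cell microRNA. Csf2rb encodes the common beta chain of the receptors for IL-3, IL-5 and GM-CSF, and Csf2rb2 encodes a beta chain of the IL-3 receptor. They are near-identical copies whose reads could have been shared between them. Csf2rb2 was at 1.39 TPM at 0 h and 2771, 2959 and 3101 TPM under DTPA, and Csf2rb was at 5.26 TPM at 0 h and 1737, 1900.4 and 1957 TPM under DTPA. Their summed level was 6.65 TPM at 0 h and 4508, 4859.7 and 5059 TPM under DTPA, a ratio of means of 723. Every DTPA library lay far above the 0 h library, and the control mean of the sum was 2581 TPM. Aqp8, an aquaporin of membranes, was at 1.61 TPM at 0 h and 653, 626 and 652 TPM under DTPA, a difference of 7.95 ± 0.043 on the log2 scale (SE, limma, adjusted p = 2.64e-08). Rogdi was at 8.81 TPM at 0 h and 1626, 1936 and 1880.2 TPM under DTPA (7.53 on the log2 scale). Dhrs3, which reduces retinal to retinol, was at 0.23 TPM at 0 h and 150.2, 164 and 157 TPM under DTPA (7.00), and Neurl3, a neuralized-family ubiquitin ligase, was at 15.9 TPM at 0 h and 1954, 1853 and 1942 TPM under DTPA (6.83). All 4 genes were low in the 0 h library and at similar levels in the 3 DTPA libraries.

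Mir451a, the gene of a microRNA abundant in red cell precursors, was listed at 0 at 0 h and at 299, 259 and 352 TPM under DTPA, and the control libraries held 162, 121 and 143 TPM. An mRNA library does not capture mature microRNAs, so these reads come from longer transcripts over the locus. The mature sequence made from it is shown because its seed (bases 2 to 8, in capitals) decides which messages it pairs with (RefSeq, GRCm38.p6, chr11:78073186-78073207, plus strand).
mmu-miR-451a: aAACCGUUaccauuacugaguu

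Among the deepest falls were a progenitor factor, a metallothionein and genes of DNA replication. Lyl1, a basic helix-loop-helix factor of blood progenitors, was at 349 TPM at 0 h and 1.06, 0.65 and 0.55 TPM under DTPA, a difference of -7.65 ± 0.294 on the log2 scale (SE, limma, adjusted p = 3.49e-06). Nefh, the neurofilament heavy chain, was at 324 TPM at 0 h and 3.09, 2.76 and 1.99 TPM under DTPA (-6.50 on the log2 scale). Cdca7, a cell division gene, was at 216 TPM at 0 h and 1.52, 1.38 and 1.78 TPM under DTPA (-6.41). No DTPA library came near the 0 h value for any of these 3 genes. Mthfd1l, a mitochondrial enzyme of one-carbon metabolism, fell by 5.75 from 159.5 TPM, Flna, the actin crosslinker filamin A, by 5.66 from 169.8 TPM, and Ces2g, a carboxylesterase, by 5.65 from 69.7 TPM. Chosen after their values were seen, 23 genes were listed at 0 at 0 h and held at least 5 TPM in each DTPA library, and 19 showed the reverse. The first set included Gip, Eqtn, Ptk6 and Nrl with the embryonic globins Hbb-y and Hba-x, and the second included the integrin Itgal, at 12.4 TPM at 0 h, and the mast cell protease Cpa3.

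Metallothionein transcripts were far lower under DTPA. Mt2 (chr8:94172664-94173568, GRCm38) was at 2018 TPM at 0 h and 12.0, 13.7 and 12.1 TPM under DTPA, a difference of -7.22 ± 0.094 on the log2 scale (SE, limma, adjusted p = 1.95e-07), and Mt1 (chr8:94179082-94180327) was at 1305 TPM at 0 h and 184, 203 and 198 TPM under DTPA, a difference of -2.74 ± 0.127 on the log2 scale (SE, limma, adjusted p = 7.13e-06). For both genes each of the 3 DTPA libraries lay below the 0 h library and the DTPA libraries lay close together. Control cells held 2752 ± 153 TPM (SD, n = 3) of Mt2 and 2465 ± 273 TPM (SD, n = 3) of Mt1, levels above the 0 h library. The difference between DTPA and control was -7.66 for Mt2 and -3.65 for Mt1 on the log2 scale (limma, adjusted p = 7.86e-07 and 3.84e-06). Mtf1, the zinc-sensing factor that drives both genes, was at 12.4 TPM at 0 h and 19.3, 18.0 and 20.7 TPM under DTPA and was not called, although it passed the 2-fold limit after quantile normalization. In the control against 0 h Mtf1 was the 1 member called higher. All 3 tested members, Mtf1 among them, were called lower under DTPA than in the control. The remaining members, Mt3 and Mt4, did not reach 1 TPM on either side. The non-coding gene Gm45774 shares exon sequence with Mt2, and the strand setting of the counting is not known here.

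The 250 bases upstream of both metallothionein genes and of the zinc exporter Slc30a1 are shown because they hold the core letters of the metal response element, TGCNCNC, marked in capitals and searched on both strands (RefSeq, GRCm38.p6, all on the plus strand). The Mt2 window (chr8:94172368-94172617) held 5 matches, the Mt1 window (chr8:94178839-94179088) held 1, which starts at -23 from the gene start, and the Slc30a1 window (chr1:191906531-191906780) held 1 at -43. Each count covers only the 250 bases before the RefSeq start, and bases outside them were not searched.
Mt2: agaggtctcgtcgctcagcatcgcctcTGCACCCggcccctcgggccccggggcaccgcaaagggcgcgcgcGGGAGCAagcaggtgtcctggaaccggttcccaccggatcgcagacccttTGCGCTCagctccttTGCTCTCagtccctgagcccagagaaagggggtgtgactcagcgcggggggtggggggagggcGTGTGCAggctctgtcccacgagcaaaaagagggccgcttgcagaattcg
Mt1: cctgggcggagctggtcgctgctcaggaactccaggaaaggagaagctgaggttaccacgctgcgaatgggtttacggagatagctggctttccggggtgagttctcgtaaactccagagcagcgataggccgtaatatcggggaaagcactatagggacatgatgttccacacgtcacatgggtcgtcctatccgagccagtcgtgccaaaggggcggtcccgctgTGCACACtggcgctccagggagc
Slc30a1: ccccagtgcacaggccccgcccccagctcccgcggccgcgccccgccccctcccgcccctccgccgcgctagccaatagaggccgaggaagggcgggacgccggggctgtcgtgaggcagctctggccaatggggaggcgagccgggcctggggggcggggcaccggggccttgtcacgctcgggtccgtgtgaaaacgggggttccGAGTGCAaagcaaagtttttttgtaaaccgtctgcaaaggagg
These letters are short, and 44.4% of all 32851 upstream windows in the RefSeq table held them, as did 52.3% of the windows of tested genes. The share was 53.3% for the ZIP genes and 70.0% for the ZnT genes. Both windows of Slc39a10 held none, which says only that these letters are not in those bases. A match is a description of the sequence and not a binding site.

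Zinc importers moved in both directions. Of 14 ZIP genes, 9 were tested, and 2 rose, 4 fell and 3 were not called, with a median of -0.53 against -0.30 over all genes tested. The 66.7% called compares with 43.3% of all genes. In the control against 0 h 2 were higher and 3 lower. Slc39a10, which encodes the plasma membrane importer ZIP10 (chr1:46807544-46892852), was at 37.3 TPM at 0 h and 15.1, 15.5 and 15.9 TPM under DTPA, a difference of -1.21 ± 0.095 on the log2 scale (SE, limma, adjusted p = 6.35e-05). Each DTPA library lay below the 0 h library, yet the control libraries were far lower still, at 1.24, 1.21 and 1.04 TPM, and the difference between DTPA and control was 2.94 ± 0.067 on the log2 scale (SE, limma, adjusted p = 3.39e-06). Slc39a10 thus kept a level under DTPA between those of the 0 h and the control libraries. Its call against 0 h was lost after median-of-ratios scaling (-0.95) and quantile normalization (-0.92).

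Slc39a8, whose product ZIP8 carries zinc, iron and manganese, was at 42.7 TPM at 0 h and 264, 243 and 244 TPM under DTPA, a difference of 2.52 ± 0.059 on the log2 scale (SE, limma, adjusted p = 7.04e-07). Every DTPA library was above the 0 h library, as were the control libraries, with a mean of 298 TPM. Slc39a11, an importer placed in the Golgi and nucleus, was at 12.5 TPM at 0 h and 1.67, 1.27 and 0.75 TPM under DTPA (-2.62 on the log2 scale), and Slc39a3 was at 10.1 TPM at 0 h and 2.29, 3.18 and 3.85 TPM under DTPA (-1.45). Both fell, as did Slc39a6, from 16.6 to 7.65 ± 0.99 TPM (SD, n = 3), a change of -1.03, although Slc39a6 lost its call under each scaling alternative. Slc39a13, a Golgi zinc transporter, rose from 4.41 to 10.5 ± 1.22 TPM (SD, n = 3), a change of 1.08, and it shares exon bases with Psmc3 on the other strand. The calls of Slc39a3 and Slc39a13 were lost with a pseudocount of 5. Slc39a1 was at 51.2 TPM at 0 h and 42.9, 42.2 and 44.5 TPM under DTPA, Slc39a7, which releases zinc from the endoplasmic reticulum, was at 2.42 TPM at 0 h and 1.33, 1.31 and 1.45 TPM under DTPA, and Slc39a9 was at 23.3 TPM at 0 h and 16.4, 17.2 and 17.3 TPM under DTPA. None of these 3 was called. Slc39a7 shares exon bases with Gm20427 on the same strand, and Slc39a9 with Erh on the other, a gene that went from 170.6 TPM to a mean of 27.5 TPM. Of the members not tested, Slc39a2 and Slc39a4 stayed under 1 TPM and Slc39a5, Slc39a12 and Slc39a14 were listed at 0.

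Among the zinc exporters 7 of 10 were tested, of which 2 rose and 1 fell, with a median of 0.31. The 42.9% called was close to the 43.3% of all genes. Slc30a1 encodes ZnT1, the exporter of the plasma membrane, and was at 14.4 TPM at 0 h and 42.6, 40.4 and 44.7 TPM under DTPA, a difference of 1.5 ± 0.078 on the log2 scale (SE, limma, adjusted p = 1.11e-05). The control libraries, at 29.2, 30.7 and 27.9 TPM, were also above the 0 h library. Slc30a10, a transporter of manganese, was at 42.5 TPM at 0 h and 109, 110.2 and 111 TPM under DTPA (1.35 on the log2 scale), and Gm2061, which shares exon bases with it on the other strand, went from 3.25 TPM to a mean of 25.2 TPM. Slc30a2, a vesicle exporter, was at 8.07 TPM at 0 h and 0.32, 0.16 and 0.62 TPM under DTPA (-2.74). Slc30a2 is the exporter that fell. Slc30a5 was at 30.6 TPM at 0 h and 21.8, 20.2 and 19.2 TPM under DTPA, Slc30a6 was at 14.3 TPM at 0 h and 6.58, 7.74 and 6.61 TPM under DTPA and Slc30a7 was at 5.18 TPM at 0 h and 7.09, 6.31 and 6.57 TPM under DTPA, all 3 of them transporters of the secretory pathway. Slc30a9 was at 20.3 TPM at 0 h and 31.7, 31.4 and 31.7 TPM under DTPA. These 4 genes were not called.

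**Figure D2:**
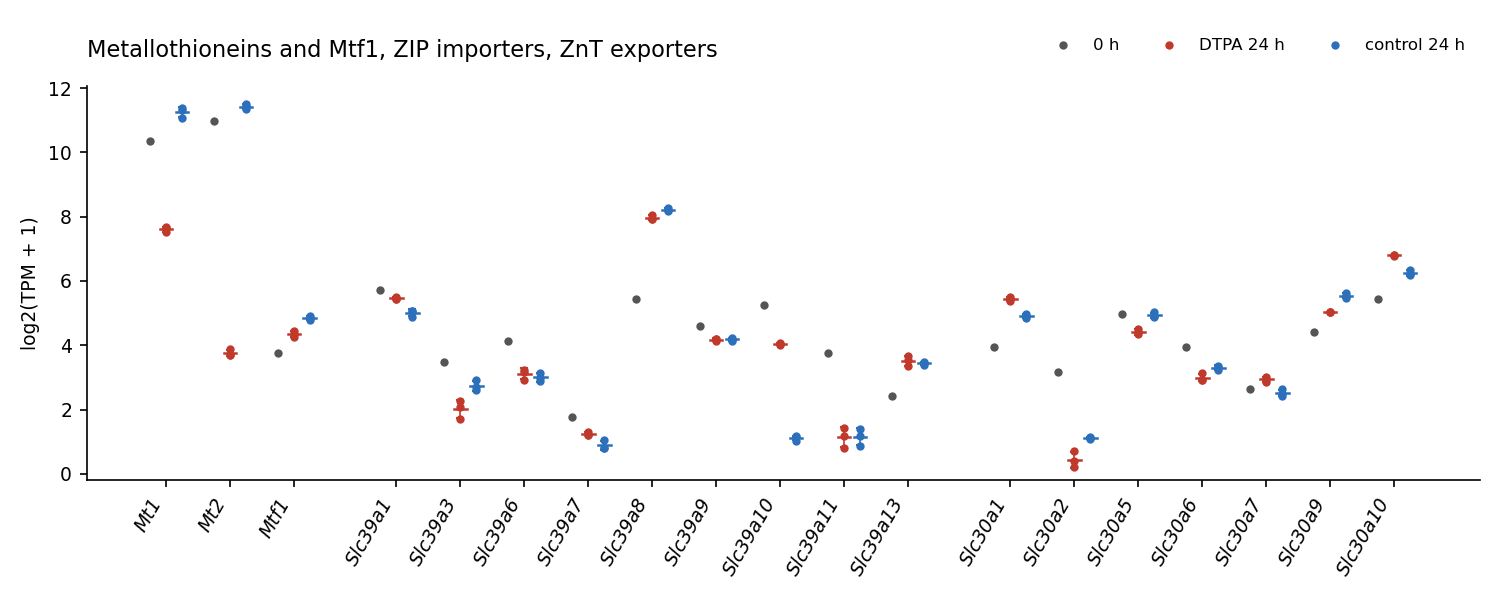
Levels (y axis, log2(TPM + 1)) of metallothioneins, Mtf1, zinc importers and zinc exporters in each library at 0 h, at 24 h in the control and at 24 h under DTPA, with points for libraries and bars for the mean ± SD of the log2 values in the 24 h groups (n = 3). Mt2 sits near 12.6 TPM under DTPA against 2018 TPM at 0 h, and Slc39a10 under DTPA lies between the 0 h and control libraries.

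Zinc-dependent enzymes showed no common direction. Of 22 tested, 3 rose and 7 fell, and the 45.5% called was close to the 43.3% of all genes, with a median of -0.19 that became 0.08 after median-of-ratios scaling and 0.12 after quantile normalization. Car1, the carbonic anhydrase of early red cell precursors, was at 4453 TPM at 0 h and 494, 421 and 470.4 TPM under DTPA and fell by 3.27 on the log2 scale, while the control libraries were lower still, with a mean of 88.5 TPM. Cpz, a carboxypeptidase, was at 4.52 TPM at 0 h and 100.1, 108 and 107 TPM under DTPA, a difference of 4.26 ± 0.07 on the log2 scale (SE, limma, adjusted p = 3.15e-07). Its control mean was 10.8 TPM, so each DTPA library was above every control library. Mmp14, a membrane-bound metalloprotease, fell by 4.91 from 41.1 TPM, and Sord, sorbitol dehydrogenase, rose by 2.60 to 1343 ± 15.9 TPM (SD, n = 3).

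Every tested globin gene rose, but Hbb-y, Hba-x, Hbb-bh0 and Hbb-bh2 were listed at 0 at 0 h. Those genes were tested only through their DTPA level and could only rise. The 10 globin genes tested had a median change of 3.00, against 2.45 in the control against 0 h, where 8 were called higher. Over all genes tested 15.7% were called higher under DTPA and 14.6% in the control. Hbb-bh0 and Hbb-bh2 were listed at 0 in the control libraries too, so they could not be called there. Hba-a1 and Hba-a2, the adult alpha genes, are near-identical copies and are given as a sum, which was 2935 TPM at 0 h and 12527, 12941 and 13489.7 TPM under DTPA, with a control mean of 17819 TPM. Hbb-bs and Hbb-bt, the adult beta genes, also near-identical, summed to 6189.6 TPM at 0 h and 49251, 63298 and 44592 TPM under DTPA, with a control mean of 31802 TPM. The alpha sum under DTPA was above the 0 h library and below each control library, and the beta sum was above both. The split between copies varied most for Hbb-bt, at 12456, 16392 and 4380.4 TPM in the 3 DTPA libraries. All globin genes together took 0.914% of the TPM at 0 h and 6.64%, 8.12% and 6.27% under DTPA.

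The embryonic globins rose from near 0. Hbb-bh1, the beta-like gene of primitive red cells, was at 5.80 TPM at 0 h and 4268, 4478 and 4211 TPM under DTPA, a difference of 9.31 ± 0.098 on the log2 scale (SE, limma, adjusted p = 1.33e-07), with a control mean of 53.7 TPM. Hbb-y was listed at 0 at 0 h and at 295, 354 and 286 TPM under DTPA, and Hba-x, the embryonic alpha-like gene, was listed at 0 and at 64.1, 85.5 and 80.3 TPM. The control means were 14.9 TPM for Hbb-y and 7.25 TPM for Hba-x. All 3 genes were higher in every DTPA library than in every control library. Hbb-bh0 was at 0 TPM at 0 h and 4.45, 7.97 and 14.03 TPM under DTPA and Hbb-bh2 at 0 TPM at 0 h and 2.57, 3.68 and 4.24 TPM under DTPA, and both were listed at 0 in the 3 control libraries. The call of Hbb-bh2 was lost with a pseudocount of 5. The 5 embryonic genes summed to 5.8 TPM at 0 h and 4634, 4929 and 4595 TPM under DTPA. They made up 0.0635% of globin TPM at 0 h and 6.97%, 6.07% and 7.33% under DTPA. The alpha-like gene Hbq1b rose by 1.55 to 33.3 ± 2.03 TPM (SD, n = 3).

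Genes of heme synthesis and transport changed in both directions. Of 22 genes tested 10 rose and 4 fell, with a median of 0.60 (1.02 in the control). The 63.6% called compares with 43.3% of all genes (15.7% higher and 27.6% lower). Alas2, the erythroid enzyme that starts heme synthesis, was at 34.1 TPM at 0 h and 2510.3, 2585 and 2518 TPM under DTPA, a difference of 6.17 ± 0.05 on the log2 scale (SE, limma, adjusted p = 7.60e-08), and every DTPA library was also above the control libraries, at 1913, 2007 and 1892 TPM. Alas1, the other enzyme of that first step, fell by 1.01 to 3.98 ± 0.327 TPM (SD, n = 3), a call lost under all 3 scaling alternatives. Abcb10, a mitochondrial inner membrane transporter, rose by 3.86 to 1109.7 ± 19.8 TPM (SD, n = 3), Ppox, protoporphyrinogen oxidase, by 3.04 to 199.8 ± 18.6 TPM (SD, n = 3), Tmem14c, a mitochondrial porphyrin carrier, by 2.57 to 4134 ± 310.0 TPM (SD, n = 3), and Fech, ferrochelatase, by 1.73 to 254 ± 4.42 TPM (SD, n = 3). B4galt3, whose exons overlap those of Ppox on the other strand, stood at 9.5 TPM at 0 h and 11.2 TPM under DTPA. Alad, the zinc-containing second enzyme of the pathway, was at 652 TPM at 0 h and 293, 336 and 321 TPM under DTPA and fell by 1.04, whereas in the control its change was 0.64 and was not called. The call of Alad was lost after median-of-ratios scaling, and the 4 calls lower in the list became 0 under that scaling and 2 after quantile normalization. Hmox1, which breaks heme down, rose by 2.54 to 66.1 ± 0.287 TPM (SD, n = 3).

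The upstream window of Alas2 (chrX:150547167-150547416, plus strand, RefSeq, GRCm38.p6) is shown because GATA1 binds GATA letters in erythroid genes. The motif AGATAA, searched on both strands and set in capitals, occurs there once, at -86 from the gene start.
Alas2: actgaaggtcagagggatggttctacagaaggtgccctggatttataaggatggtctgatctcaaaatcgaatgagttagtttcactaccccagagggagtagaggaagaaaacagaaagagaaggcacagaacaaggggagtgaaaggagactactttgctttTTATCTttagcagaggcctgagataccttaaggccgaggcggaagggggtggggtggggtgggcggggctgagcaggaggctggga
These letters were in 9.99% of all windows, in 6.09% of those of tested genes, in 7.73% of those of genes that rose and in 5.68% of those of genes not called. They were in 22.2% of the windows of globin genes in the table. The windows of Lyl1, Csf2rb2 and Rogdi did not hold them.

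Iron genes changed in both directions, with 3 of 20 higher and 5 lower, and the 40.0% called was near the share over all genes. Ncoa4, which delivers ferritin for breakdown, was at 21.6 TPM at 0 h and 290.2, 287 and 285 TPM under DTPA, a difference of 3.67 ± 0.063 on the log2 scale (SE, limma, adjusted p = 3.28e-07). Glrx5, an iron-sulfur cluster protein, rose by 1.51 and Ftl1, ferritin light chain, by 1.51, although the call of Ftl1 was lost after quantile normalization. Hspa9, a mitochondrial chaperone of iron-sulfur assembly, fell by 3.32 from 657 TPM, and Tfr2, the second transferrin receptor, by 2.37. Tfrc, which takes up transferrin iron, was at 368 TPM at 0 h and 710.0, 639 and 666 TPM under DTPA and was not called. Median-of-ratios scaling gave 6 rises and 4 falls.

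Red cell membrane genes divided by member. Of 28 tested 10 rose and 7 fell, or 60.7% called against 43.3% of all genes. Against the control 19 were lower and 5 higher under DTPA, beside 33.4% and 20.6% of all genes. These counts were 15 and 6 after median-of-ratios scaling and 16 and 7 after quantile normalization. Slc4a1, the anion exchanger band 3, was at 45.6 TPM at 0 h and 70.7, 76.1 and 72.3 TPM under DTPA and was not called, while the control libraries held 775, 768 and 768 TPM. The DTPA libraries of Slc4a1 were thus slightly above the 0 h library and far below the control libraries (difference between DTPA and control -3.38 on the log2 scale, limma, adjusted p = 8.22e-07). Sptb, beta-spectrin, was at 113 TPM at 0 h and 853, 948 and 955 TPM under DTPA (3.01 on the log2 scale), and Dmtn, the actin bundler dematin, rose by 2.92 to 19.8 ± 0.758 TPM (SD, n = 3). Dmtn was below its control mean of 98.8 TPM. Rhd, the Rh blood group protein, was at 26.2 TPM at 0 h and 1.26, 0.83 and 1.40 TPM under DTPA, a difference of -3.66 ± 0.182 on the log2 scale (SE, limma, adjusted p = 9.30e-06), with a control change of -0.38 that was not called. Rhag, which forms the Rh complex with it, fell by 2.98 from 273 TPM, and Tmod1, which caps actin filaments in the membrane skeleton, fell by 1.54.

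**Figure D3:**
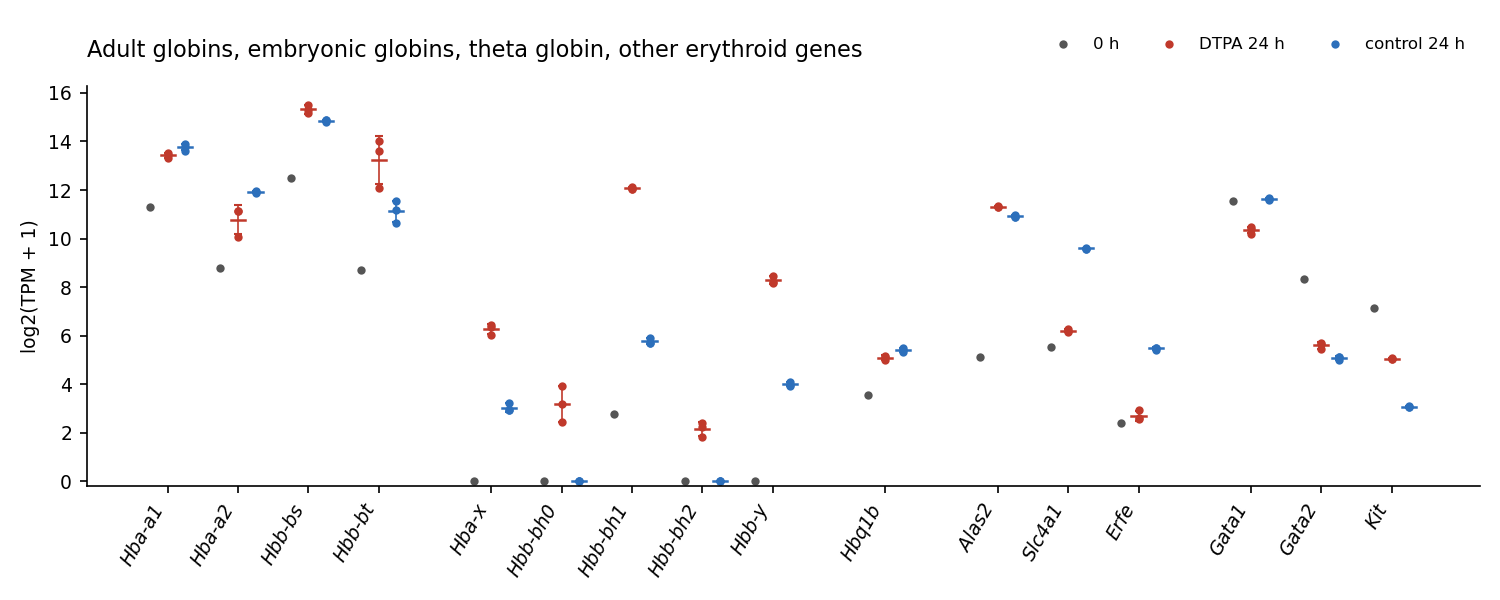
Levels (y axis, log2(TPM + 1)) of adult and embryonic globins, heme and membrane genes, Erfe, the factors Gata1 and Gata2, and the receptor gene Kit. Points are the libraries at 0 h, in the control and under DTPA. Bars are the mean ± SD of the log2 values in the 24 h groups (n = 3). Hbb-bh1 lies far above the control under DTPA, Slc4a1 stays near its 0 h level, and Alas2 is high in both 24 h groups.

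Erythroid transcription factors split almost evenly, with 7 of 24 higher and 8 lower, so that 62.5% were called against 43.3% of all genes. Bach1, the heme-sensing repressor, was at 15.2 TPM at 0 h and 324, 332 and 333 TPM under DTPA, a difference of 4.35 ± 0.034 on the log2 scale (SE, limma, adjusted p = 6.93e-08), and Klf13 and Foxo3, a forkhead factor of late erythroid maturation, rose by 3.10 and 2.31. Hemgn, a nuclear protein of erythroid cells, was at 136 TPM at 0 h and 1.71, 1.99 and 1.33 TPM under DTPA, a difference of -5.69 ± 0.151 on the log2 scale (SE, limma, adjusted p = 1.01e-06), and its control mean was 32.5 TPM. Each DTPA library of Hemgn was below every control library. Bcl11a, a repressor of embryonic and fetal globin genes, was at 55.4 TPM at 0 h and 3.11, 3.33 and 3.60 TPM under DTPA (-3.70), with a control mean of 6.50 TPM. E2f2, an E2F factor used in erythroid cell cycle exit, fell by 3.20 from 51.1 TPM, and Sox6, another repressor of embryonic globin, fell by 2.06. Gata1 was at 2969 TPM at 0 h and 1177, 1329 and 1410.0 TPM under DTPA and fell by 1.19, with a control mean of 3164 TPM, and its call was lost after median-of-ratios scaling. Reads from the GATA1 transgene cannot be told apart from those of the endogenous locus in this table. Gfi1b, a GATA1-induced repressor, rose by 1.35.

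Most genes of earlier progenitors fell. 9 of 16 tested fell and 2 rose, with a median of -1.24 (-1.41 in the control). The 68.8% called compares with 43.3% of all genes (15.7% higher and 27.6% lower). Myb, a factor of dividing progenitors, was at 139 TPM at 0 h and 2.89, 2.78 and 2.88 TPM under DTPA, a difference of -5.19 ± 0.103 on the log2 scale (SE, limma, adjusted p = 4.15e-07). Myc, a transcription factor that drives cell growth, was at 474 TPM at 0 h and 28.9, 31.2 and 31.6 TPM under DTPA (-3.91), and Gata2, which GATA1 replaces during maturation, was at 319.7 TPM at 0 h and 42.6, 51.6 and 48.8 TPM under DTPA (-2.72). Kit, the receptor of Kit ligand, was at 138 TPM at 0 h and 31.9, 32.0 and 32.4 TPM under DTPA (-2.07), with a control mean of 7.41 TPM. Myb, Myc, Gata2 and Kit were lower in each DTPA library than at 0 h, and their DTPA levels were above those of the control libraries. Spi1, which encodes the myeloid factor PU.1, and Fli1, an ETS factor of megakaryocytes, rose by 1.47 and 2.15.

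Erythropoietin and STAT5 genes gave 5 rises and 4 falls among 18 (50.0% called, against 43.3% of all genes). Pim1, a survival kinase downstream of STAT5, was at 127 TPM at 0 h and 553, 582 and 592 TPM under DTPA (2.17), and Bcl2l1, which encodes the survival protein BCL-XL, rose by 2.12 to 142 ± 4.35 TPM (SD, n = 3). Ptpn6, a phosphatase that shuts the receptor down, was at 91.2 TPM at 0 h and 6.45, 6.08 and 5.17 TPM under DTPA (-3.75). Osm, an oncostatin M cytokine gene, fell by 3.36 from 12.9 TPM, and Podxl, podocalyxin, by 3.33 from 313 TPM. Erfe, the erythroferrone hormone gene, was at 4.21 TPM at 0 h and 4.84, 5.06 and 6.68 TPM under DTPA and was not called, while the control libraries held 44.6, 44.1 and 41.6 TPM. No DTPA library of Erfe came near a control library.

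Genes of DNA replication fell almost without exception. Of 40 tested 37 fell, against 27.6% of all genes, and 0 rose, with a median of -3.23. The exceptions were Gins3, Gins4 and Rfc2, which were not called. In the control against 0 h 28 of the same genes were lower, with a median of -1.51. Between DTPA and control 39 of 40 were lower under DTPA, against 33.4% of all genes tested. Uhrf1, which keeps DNA methylation through replication, was at 292 TPM at 0 h and 3.20, 3.52 and 4.51 TPM under DTPA, a difference of -5.96 ± 0.147 on the log2 scale (SE, limma, adjusted p = 8.34e-07). Mcm6, a subunit of the replicative helicase, was at 490.4 TPM at 0 h and 8.06, 8.06 and 7.46 TPM under DTPA, a difference of -5.79 ± 0.065 on the log2 scale (SE, limma, adjusted p = 1.37e-07), and Mcm5, its partner, was at 538 TPM at 0 h and 17.5, 18.8 and 18.3 TPM under DTPA (-4.81). Each was lowest in the DTPA libraries and intermediate in the control, where the means were 44.7, 70.3 and 193 TPM. Rrm2, the ribonucleotide reductase subunit made in S phase, was at 388 TPM at 0 h and 13.7, 13.0 and 13.3 TPM under DTPA (-4.76), and Pcna, the sliding clamp of replication, was at 439 TPM at 0 h and 25.5, 25.5 and 28.9 TPM under DTPA.

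The upstream window of Cdca7 (chr2:72475969-72476218, plus strand, RefSeq, GRCm38.p6) is shown as an example of the E2F letters TTCCCGC, in capitals at -71 from the gene start and searched on both strands.
Cdca7: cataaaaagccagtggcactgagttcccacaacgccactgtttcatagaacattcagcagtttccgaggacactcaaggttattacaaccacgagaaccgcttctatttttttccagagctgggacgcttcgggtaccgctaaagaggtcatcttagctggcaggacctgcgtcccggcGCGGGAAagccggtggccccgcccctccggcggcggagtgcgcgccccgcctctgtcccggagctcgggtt
The letters were in 11 of 37 windows of the replication list in the table (29.7%), in 8.67% of the windows of genes that fell, in 7.06% of those not called and in 3.82% of all windows. Cdca7 is not a member of the replication list. The Mcm6 window did not hold the letters, and of the 2 Uhrf1 windows 1 held them, at -48, and the other did not.

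Mitosis genes also fell under DTPA, while their median change in the control was close to 0. Of 42 tested 40 fell, against 27.6% of all genes, 1 rose and 1 was not called, with a median of -3.11. The falls numbered 36 after median-of-ratios scaling and 37 after quantile normalization. In the control against 0 h 5 were higher and 10 lower, with a median of -0.15. Between DTPA and control 41 were lower under DTPA, against 33.4% of all genes. Bub1b, a spindle checkpoint kinase, was at 150.01 TPM at 0 h and 3.05, 2.89 and 3.68 TPM under DTPA, a difference of -5.17 ± 0.131 on the log2 scale (SE, limma, adjusted p = 8.92e-07). Aurkb, the kinase of the chromosomal passenger complex, was at 122 TPM at 0 h and 2.92, 2.79 and 3.26 TPM under DTPA (-4.95), and Cdk1, the kinase that starts mitosis, was at 80.3 TPM at 0 h and 2.68, 1.58 and 1.97 TPM under DTPA (-4.74). Every DTPA library of these 3 kinases was below the 0 h and control libraries. Kif20a, a kinesin of cytokinesis, fell by 4.42 to 6.44 ± 0.824 TPM (SD, n = 3), and its exons overlap those of Cdc23 on the other strand. Mki67, the proliferation marker Ki-67, was at 299.8 TPM at 0 h and 44.2, 39.9 and 43.5 TPM under DTPA (-2.79), with a control mean of 319.9 TPM. Ccnb1, cyclin B1, was at 177 TPM at 0 h and 49.7, 46.7 and 46.9 TPM under DTPA (-1.87), with a control mean of 265 TPM. Cdc25b, a phosphatase that activates CDK1, rose by 2.41, and Cenpa, the centromeric histone, was not called (-0.14).

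The windows of Ube2c (chr2:164769679-164769928) and Prc1 (chr7:80294226-80294475), both on the plus strand of GRCm38.p6 in RefSeq, are shown because they hold TTTGAA, the letters of the cell cycle homology region of mitosis genes, in capitals at -29 and -30 from the gene start. Prc1 has another window in the table, which does not hold the letters.
Ube2c: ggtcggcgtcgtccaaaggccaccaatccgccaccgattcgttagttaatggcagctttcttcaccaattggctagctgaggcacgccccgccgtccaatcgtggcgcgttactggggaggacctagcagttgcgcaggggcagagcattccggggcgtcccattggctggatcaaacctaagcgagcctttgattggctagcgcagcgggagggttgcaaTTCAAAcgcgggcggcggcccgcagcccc
Prc1: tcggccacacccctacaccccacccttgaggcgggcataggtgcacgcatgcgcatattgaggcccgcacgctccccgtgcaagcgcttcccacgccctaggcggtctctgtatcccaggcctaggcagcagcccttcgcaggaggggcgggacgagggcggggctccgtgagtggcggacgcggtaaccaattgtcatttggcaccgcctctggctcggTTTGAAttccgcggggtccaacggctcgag
Searched on both strands, they were in 12 of 37 windows of the mitosis list (32.4%), in 12.3% of the windows of genes that fell, in 9.95% of those not called and in 16% of all windows. Nusap1 and Birc5 did not hold them.

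**Figure D4:**
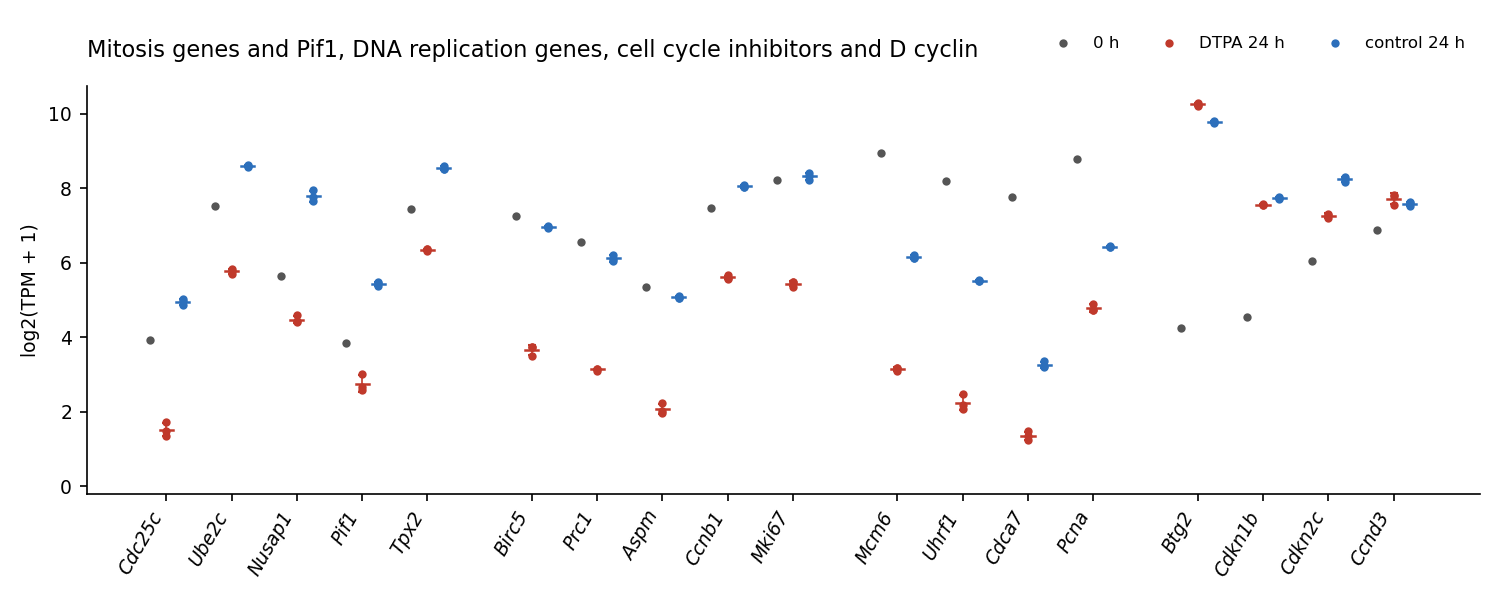
Levels (y axis, log2(TPM + 1)) of mitosis genes with the helicase Pif1, DNA replication genes, and growth arrest genes with the cyclin gene Ccnd3. Points are the libraries at 0 h, in the control and under DTPA. Bars are the mean ± SD of the log2 values in the 24 h groups (n = 3). The DTPA points of the mitosis genes lie below both other groups, and Btg2 and Cdkn1b are high in both 24 h groups.

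Regulators of the cycle gave 9 rises and 12 falls among 28 (75% called, against 43.3% of all genes). The antiproliferative gene Btg2 was at 18.1 TPM at 0 h and 1192, 1219 and 1262 TPM under DTPA, a difference of 6.01 ± 0.046 on the log2 scale (SE, limma, adjusted p = 6.93e-08), and Mxd1, which opposes MYC, was at 7.25 TPM at 0 h and 131, 137 and 137 TPM under DTPA (4.04). Cdkn1b, the inhibitor p27, rose by 3.03 to 188 ± 2.87 TPM (SD, n = 3). Cdkn2c, the inhibitor p18, was at 64.9 TPM at 0 h and 156, 146 and 158 TPM under DTPA (1.22) and reached a mean of 301 TPM in the control. Cdk6 was at 44.2 TPM at 0 h and 2.51, 2.25 and 2.75 TPM under DTPA (-3.69), and E2f8, an atypical E2F repressor, fell by 4.50 from 103 TPM. Ccnd2, cyclin D2, fell by 2.95 and Cdk4, its partner kinase, by 2.52, while Ccnd3, cyclin D3, was at 118 TPM at 0 h and 188, 224 and 221 TPM under DTPA and was not called on the deposited scale. The list median of -0.10 became 0.16 after median-of-ratios scaling and 0.21 after quantile normalization.

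A set of 33 chromatin and nuclear condensation genes gave 21 falls and 4 rises, with a median of -1.36 (75.8% called, against 43.3% of all genes). Lmnb1, lamin B1 of the nuclear lamina, was at 291 TPM at 0 h and 4.89, 5.30 and 5.17 TPM under DTPA, a difference of -5.58 ± 0.167 on the log2 scale (SE, limma, adjusted p = 1.48e-06), and its control mean was 35.2 TPM. Hmgb3, a high-mobility group protein, fell by 3.90 and Macroh2a1, a variant histone, by 3.25. Sun2, a nuclear envelope linker, was at 12.7 TPM at 0 h and 265, 292 and 299 TPM under DTPA (4.38), and Lmna, lamin A, rose by 2.41.

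Nearly all genes of ribosome biogenesis fell. 39 of 40 genes fell, against 27.6% of all genes, and none rose, with a median of -3.04, and Rrn3 was not called. In the control 37 were lower, with a median of -2.79. Grwd1, a ribosome assembly chaperone, was at 211 TPM at 0 h and 6.42, 8.35 and 6.97 TPM under DTPA, a difference of -4.69 ± 0.196 on the log2 scale (SE, limma, adjusted p = 4.75e-06). Polr1b, a subunit of RNA polymerase I, was at 75.9 TPM at 0 h and 3.04, 2.73 and 3.38 TPM under DTPA (-4.25), and Nolc1, a nucleolar phosphoprotein, was at 555 TPM at 0 h and 27.6, 28.4 and 31.2 TPM under DTPA (-4.21). Mybbp1a fell by 4.21. All were low in every DTPA library.

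Few ribosomal protein genes were called against 0 h. 5 of 79 fell and none rose, or 6.33% against 43.3% of all genes, with a median of -0.40 against -0.30. The falls included Rpl12, Rpl14, Rps2 and Rps10, and the count was 2 after median-of-ratios scaling and 3 after quantile normalization. In the control 30 of the genes were lower than at 0 h, and 68 were higher under DTPA than in the control, against 20.6% of all genes tested. That last count was 72 after median-of-ratios scaling and 60, with 1 lower, after quantile normalization. Rps2, a protein of the small subunit, was at 1209.8 TPM at 0 h and 543, 468 and 524 TPM under DTPA, and the control libraries held 479, 484 and 461 TPM. Many of these genes have processed pseudogenes, and how reads that fit several places were counted is not known here, so single members are uncertain.

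Of 23 aminoacyl-tRNA synthetase genes 14 fell (60.9%, against 27.6% of all genes) and none rose, with a median of -1.13. Eef1e1, a part of the synthetase complex, fell by 3.63 to 5.63 ± 0.96 TPM (SD, n = 3), and Gars, glycyl-tRNA synthetase, by 2.64. Among 20 heat shock and chaperonin genes 12 fell and 1, the factor Hsf2, rose, with a median of -1.66 (65% called, against 43.3% of all genes). Hspd1, the mitochondrial chaperonin HSP60, was at 2250.1 TPM at 0 h and 269, 224 and 248 TPM under DTPA (-3.19). Hsp90ab1, the constitutive HSP90, was at 4361 TPM at 0 h and 547, 555 and 568 TPM under DTPA (-2.97). Both chaperones were lower in each DTPA library than at 0 h. Endoplasmic reticulum chaperones gave 5 falls and 2 rises among 19, and the 36.8% called was below the 43.3% of all genes. Pdia4, a disulfide isomerase, fell by 2.20, while Dnajb9, a co-chaperone of BiP, rose by 3.27 to 106 ± 6.49 TPM (SD, n = 3).

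In the TCA cycle and respiratory chain 20 of 46 fell and none rose, with a median of -0.93, although 11 of them fell after median-of-ratios scaling. The 43.5% called were all falls, beside 27.6% of all genes called lower and 43.3% called in either direction. Idh2, a mitochondrial isocitrate dehydrogenase, was at 26.4 TPM at 0 h and 1.05, 0.85 and 1.18 TPM under DTPA (-3.76), Idh3a, a subunit of the NAD-dependent enzyme, fell by 3.26, and Suclg2, a succinyl-CoA ligase subunit, by 3.26. Against the control 35 of the list were lower under DTPA, beside 33.4% of all genes. That count was 26, with 3 higher, after median-of-ratios scaling and 24, with 4 higher, after quantile normalization. Glycolysis genes gave 4 rises and 9 falls among 21 (61.9% called), and 6 and 7 after median-of-ratios scaling. Ldha, lactate dehydrogenase A, was at 1315 TPM at 0 h and 99.0, 91.0 and 94.2 TPM under DTPA, a difference of -3.78 ± 0.051 on the log2 scale (SE, limma, adjusted p = 2.14e-07), and Pgk1, phosphoglycerate kinase, fell by 2.73. Pfkfb4 and Pfkm, which act at the phosphofructokinase step, rose by 3.82 and 2.82. Hypoxia genes gave 2 rises and 5 falls among 14 (50.0% called), with Pdk1, which restrains pyruvate dehydrogenase, at 58.7 TPM at 0 h and 1.33, 1.15 and 1.2 TPM under DTPA (-4.74) and Vegfa lower by 4.15 from 20.6 TPM.

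Few cholesterol synthesis genes were called against 0 h, and nearly all were lower than in the control. Of 24 tested 2 rose and 2 fell, or 16.7% against 43.3% of all genes, with a median of -0.31. In the control 6 were higher and 1 lower, with a median of 0.59. Under DTPA 23 of 24 were lower than in the control (22 after median-of-ratios scaling), against 33.4% of all genes. Dhcr7, which makes the last step to cholesterol, fell by 1.66 from 105 TPM, and Ebp, a sterol isomerase, rose by 1.18 to 153 ± 2.72 TPM (SD, n = 3). Fdps, farnesyl diphosphate synthase, was at 6.43 TPM at 0 h and 5.73, 5.09 and 6.32 TPM under DTPA and was not called, and the control libraries held 22.3, 23.3 and 24.3 TPM. All 3 DTPA libraries of Fdps lay below the control libraries.

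Many lysosome and autophagy genes rose, and none was called lower. 19 of 28 lysosome genes tested rose, against 15.7% of all genes, and 9 were not called, with a median of 1.71 (1.64 in the control). Npc2, a lysosomal cholesterol carrier, was at 56.6 TPM at 0 h and 856, 857 and 859 TPM under DTPA, a difference of 3.90 ± 0.032 on the log2 scale (SE, limma, adjusted p = 7.76e-08). Ctsa, cathepsin A, was at 14.1 TPM at 0 h and 166, 182 and 183 TPM under DTPA (3.55), and Neu1, a sialidase held by it, rose by 3.28. Tfe3, a factor that drives lysosome genes, rose by 2.96. In the autophagy list 14 of 27 rose and 13 were not called, with a median of 1.22 (1.04 in the control), and 7 of the values lay below 0. Map1lc3a, an LC3 protein of the autophagosome, was at 4.44 TPM at 0 h and 44.6, 53.7 and 50.1 TPM under DTPA (3.21). Pink1, the kinase that marks damaged mitochondria, was at 16.5 TPM at 0 h and 114, 128 and 127 TPM under DTPA (2.82), and Gabarap, an LC3 relative, rose by 2.81 to 1752 ± 27.1 TPM (SD, n = 3). Bnip3l, the receptor for mitochondrial clearance in red cells, was at 192 TPM at 0 h and 372, 355 and 353 TPM under DTPA and was not called on the deposited scale, but was called higher after median-of-ratios scaling and quantile normalization.

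The ubiquitin genes of red cell maturation gave 7 rises and 1 fall among 20. The 40.0% called in either direction compares with 43.3% of all genes (15.7% higher and 27.6% lower). Ube2l6, a conjugating enzyme for ubiquitin and ISG15, was at 41.9 TPM at 0 h and 695, 696 and 707 TPM under DTPA, a difference of 4.03 ± 0.036 on the log2 scale (SE, limma, adjusted p = 9.36e-08). Ranbp10 was at 65.4 TPM at 0 h and 488, 536 and 557 TPM under DTPA (2.99), and Ube2h was at 21.7 TPM at 0 h and 148, 162 and 157 TPM under DTPA (2.78). Ube2o, which clears ribosomes from reticulocytes, rose by 2.30, and Siah2, a ubiquitin ligase, fell by 2.21.

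**Figure D5:**
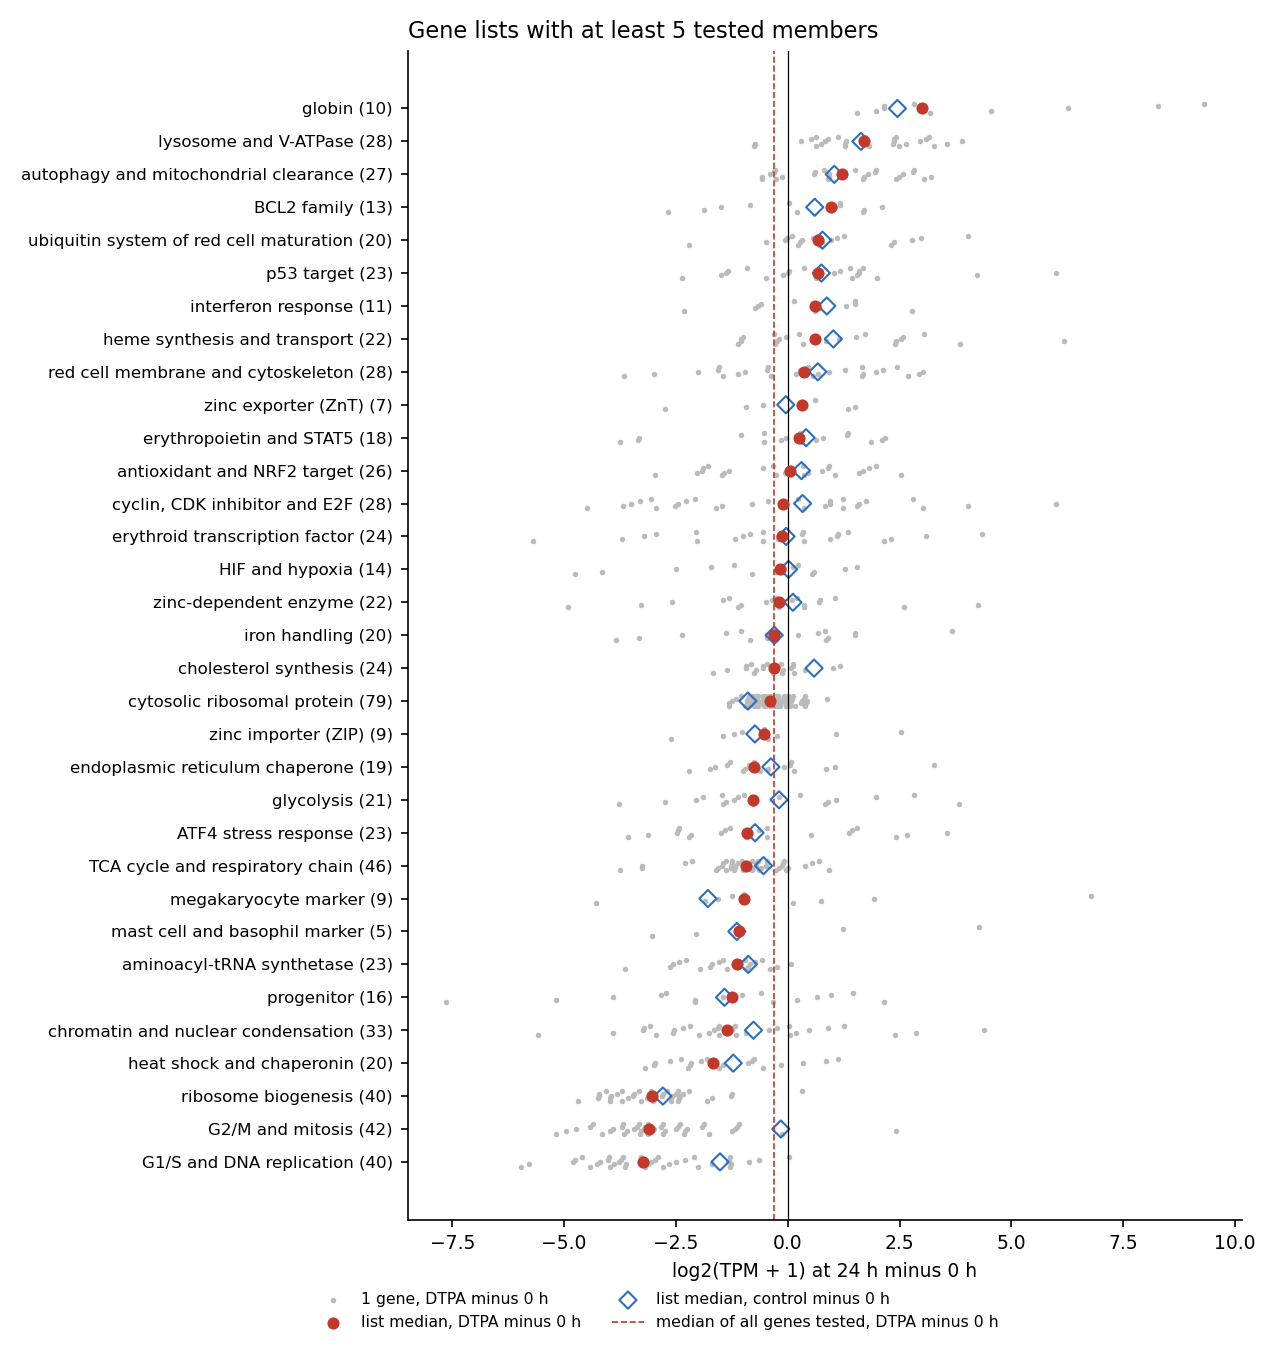
Change from 0 h under DTPA (x axis, difference of log2(TPM + 1)) of every tested member (grey points) of the gene lists with at least 5 tested members, with the list median under DTPA (red), the list median in the control (open diamond) and the median of all genes tested (dashed line at -0.30). The replication, mitosis and ribosome biogenesis medians lie near -3, the globin median near 3.00, and for the mitosis list the control median is -0.15.

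Stress lists were mixed. Of 23 p53 targets 11 rose and 4 fell, with a median of 0.68 (0.75 in the control). The 65.2% called compares with 43.3% of all genes. Trp53inp1 was at 8.73 TPM at 0 h and 193, 175 and 179.7 TPM under DTPA (4.24), and Eda2r, a death receptor, was at 4.45 TPM at 0 h and 21.9, 20.6 and 20.2 TPM under DTPA (2.01). The proapoptotic genes Bax and Bbc3 rose by 1.18 and 1.68, and Plk3, a polo-like kinase, fell by 2.36. In the BCL2 family 6 of 13 rose and 3 fell (69.2% called, against 43.3% of all genes). The falls included Bid, by 2.69, and Bcl2, at 3.46 TPM at 0 h and 0.22, 0.22 and 0.20 TPM under DTPA. The call of Bcl2 was lost with a pseudocount of 5. The ATF4 list gave 6 rises and 10 falls among 23 (69.6% called, against 43.3% of all genes). Ppp1r15a, which restores translation after stress, was at 63.3 TPM at 0 h and 719, 763 and 785 TPM under DTPA (3.56), and Eif2ak1, the heme-regulated kinase, rose by 2.66. The amino acid genes Shmt2 and Slc7a1 fell by 3.57 and 3.13. Of the 31 windows of this list in RefSeq 6 (19.4%) held TGATGCAA, letters of the amino acid response element, against 0.791% of all windows.

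Antioxidant genes gave 6 rises and 8 falls among 26 (53.8% called, against 43.3% of all genes). Under DTPA 16 were lower and 4 higher than in the control, beside 33.4% and 20.6% of all genes. These counts were 14 and 6 after median-of-ratios scaling and 14 and 5 after quantile normalization. Nqo1, a quinone reductase, was at 32.7 TPM at 0 h and 10.3, 9.08 and 7.26 TPM under DTPA (-1.78), with a control mean of 35.7 TPM. Txnrd1, thioredoxin reductase, was at 114 TPM at 0 h and 40.3, 39.3 and 41.6 TPM under DTPA (-1.47), with a control mean of 115 TPM. Both genes were lower in each DTPA library than at 0 h, and the control means lay near the 0 h values. Srxn1, sulfiredoxin, rose by 1.98 and Me1, malic enzyme, fell by 2.98. Of 11 interferon genes tested 4 rose, including Irf7, a factor of the interferon response, by 2.78, and 1, Ifitm2, fell by 2.32, so that 45.5% were called. Irf7, at 0.94 TPM at 0 h, was tested only through its DTPA level and could not be called lower.

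Some genes moved under DTPA while their control change was small or opposite. The rule for these took genes called against 0 h under DTPA, with a control change under 0.5 on the log2 scale and a called difference between DTPA and control, and it gave 91 rises and 209 falls, a choice that rests on these same contrasts and is given as a description. The rises included Alpk3, an alpha-kinase gene (chr7:81057600-81105612), at 4.57 TPM at 0 h and 72.8, 84.3 and 85.1 TPM under DTPA, with Platr32, a transcript inside it (chr7:81059113-81066307), at 0.86 TPM at 0 h and 8.01, 5.96 and 10.6 TPM under DTPA. Because Platr32 lies within Alpk3 their reads are not separate evidence. Laptm5, a lysosomal membrane protein of blood cells, was at 103 TPM at 0 h and 565, 618 and 627 TPM under DTPA (2.53), Arhgdib, a regulator of small GTPases, rose by 2.31 to 3994 ± 86.7 TPM (SD, n = 3), and Mllt3, a subunit of the super elongation complex, by 2.14 to 128 ± 5.73 TPM (SD, n = 3). Ly6g6d was at 0 TPM at 0 h and 6.49, 6.77 and 5.46 TPM under DTPA and the histone gene Hist1h2al at 1.00 TPM at 0 h and 15.2, 16.5 and 9.44 TPM under DTPA. Ly6g6d and Platr32 were tested only through their DTPA levels and could not be called lower. The calls of Platr32 and Hist1h2al were lost with a pseudocount of 0.1. The falls included Mt2, Rhd and the mitosis genes Birc5, Ckap2l, Prc1, Cdca3, Kif14 and Aspm. Birc5, which encodes survivin, was at 152 TPM at 0 h and 12.4, 10.2 and 12.4 TPM under DTPA, with control libraries at 126, 121 and 124 TPM. Aspm, a spindle pole protein, was at 39.6 TPM at 0 h and 3.66, 2.91 and 3.03 TPM under DTPA, with control libraries at 33.2, 31.9 and 32.5 TPM. For both, the control libraries were near the 0 h value and the DTPA libraries far below it.

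Called changes in opposite directions were seen for 8 genes. The 5 that fell under DTPA and rose in the control were Cdc25c, Ube2c, Nusap1, Pif1 and Tpx2, and 4 of them act in mitosis, while Pif1 encodes a DNA helicase. Ube2c, the conjugating enzyme of the anaphase-promoting complex, was at 184 TPM at 0 h and 51.1, 53.5 and 56.5 TPM under DTPA, and the control libraries held 396, 383 and 388 TPM. The 0 h value lay between the DTPA and control libraries. The calls of Nusap1, Pif1 and Tpx2 against 0 h were lost after median-of-ratios scaling and quantile normalization, with the direction unchanged. The 3 that rose under DTPA and fell in the control were unnamed predicted genes.

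Markers of other blood lineages were looked up because their levels can move with such a comparison. Of 20 megakaryocyte markers 9 were tested, of which 2 rose and 4 fell (66.7% called, against 43.3% of all genes). The list summed to 107 TPM at 0 h and 225, 223 and 234 TPM under DTPA. Tubb1, the beta-tubulin of platelets, was at 0.48 TPM at 0 h and 161, 160.4 and 162 TPM under DTPA, which is most of that sum, and Itgb3, the integrin beta-3 chain, was at 3.30 TPM at 0 h and 15.2, 14.8 and 16.1 TPM under DTPA. Gp5, Nbeal2, Pf4 and Itga2b fell, and Ppbp, Gp1bb, Gp6 and Vwf were among the defining markers listed at 0 in all 4 libraries. The myeloid list had 2 of 24 members tested, Csf2rb higher and Cd68 lower, and its sum of 13.0 TPM at 0 h and 1739, 1902 and 1961 TPM under DTPA was nearly all Csf2rb. Mpo, Elane, Prtn3, Itgam, Lyz2 and S100a8 were at 0 in all 4. The mast cell and basophil list had 5 of 12 tested, with 2 higher and 3 lower, so that all were called, against 43.3% of all genes. The falls included Cpa3, at 7.25 TPM at 0 h and 0 in each DTPA library, and Ms4a2 (-1.09). The call of Ms4a2 was lost after median-of-ratios scaling and quantile normalization. The control mean of the list's sum was 35.7 TPM. Srgn, the proteoglycan serglycin, was at 11.2 TPM at 0 h and 231, 246 and 229 TPM under DTPA, which is most of that list's sum of 24.3 TPM at 0 h and 234, 248 and 233 TPM under DTPA, while Mcpt8, Tpsb2, Cma1 and Prss34 were at 0. The lymphoid list had 1 of 21 tested, Cd79a, listed at 0 at 0 h and at 2.56, 2.82 and 2.58 TPM under DTPA, and its sum was 0.66 TPM at 0 h and 2.68, 3.06 and 2.76 TPM under DTPA, with Cd3e and Pax5 at 0. Cd79a and Tubb1 were tested only through their DTPA levels and could not be called lower. The calls of Pf4, Cd68 and Cd79a were lost with a pseudocount of 5. The part of other cell types in the results was not tested beyond these values, and in bulk RNA fewer cells of a type and less RNA per cell cannot be told apart.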

How the data were processed

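Poly(A) RNA was sequenced with a TruSeq Stranded mRNA kit, per the labels' protocols. The authors deposited 1 table of TPM values per library, each with 55487 rows of gene symbols. Per the submitters' processing notes, the tools were Trimmomatic 0.33, FastQC, HISAT2 2.1.0, featureCounts and edgeR, with the mm10 build. The annotation, gene lengths, strand setting and treatment of reads with several matches are not given in the sources used here. Rows of 114 repeated symbols were summed. Groups came from the labels. Depth was estimated from the steps of low TPM values with GENCODE M21 exon lengths, and 98.9% to 99.3% of low values were whole reads within 0.1 read.

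The tested genes reached 1 TPM at 0 h or on average under DTPA. Values of log2(TPM + 1) were fitted in R 4.3.3 by limma 3.58.1, with all 7 libraries in 3 groups, a variance trend and Benjamini-Hochberg adjustment over 12016 genes. Against 0 h a call needed an adjusted p under 0.05 and at least 2-fold. The fit was also run on simulated data in which the 0 h library varied like the others, so that assumption was not tested. Named genes were the 10 largest rises and falls at 5 TPM or more, up to 4 called members per list, all tested zinc and globin genes, and up to 8 per direction with an opposite or small control change. Other list members were named after their values were seen. Some genes under these rules are counted but not reported by name here. The comparison, its members and all lists were chosen with earlier results of these data known. Alternatives were 2 other pseudocounts, other filters, 3 scalings, no variance trend, only the libraries compared, other minimum folds, each 24 h library left out and a replicate block. Replicate numbers did not pair the libraries (correlations of deviations -0.001, 0.037 and -0.002).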

Additional observations from a re-analysis of the deposited data

Results flagged for a closer look

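For 8 genes the change from 0 h to 24 h was called in opposite directions with and without DTPA, and the difference between the DTPA and control libraries was itself tested and called (limma, adjusted p under 0.05). Both changes share the 0 h library.

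Cdc25c, a phosphatase that activates CDK1, was at 14.3 TPM at 0 h and 1.81, 1.55 and 2.29 TPM under DTPA, and the control libraries held 30.3, 28.3 and 31.4 TPM, a difference of -3.43 between DTPA and control on the log2 scale. Ube2c differed by -2.83, with means of 53.7 TPM under DTPA and 389 TPM in the control. Nusap1, a spindle protein, was at 49.4 TPM at 0 h and 23.1, 20.1 and 20.5 TPM under DTPA, and the control libraries held 215, 200.0 and 246 TPM, a difference of -3.31. Its exons overlap those of Oip5 on the other strand, which had 42.2 TPM at 0 h and a mean of 10.6 TPM under DTPA. Pif1, a DNA helicase, was at 13.4 TPM at 0 h and 4.94, 5.39 and 7.01 TPM under DTPA, and the control libraries held 43.2, 40.3 and 43.4 TPM, a difference of -2.69. Tpx2, a spindle assembly factor, was at 173 TPM at 0 h and 78.2, 81.2 and 81.8 TPM under DTPA, and the control libraries held 367, 368 and 389 TPM, a difference of -2.21. In all 5 the 0 h value lay between the 24 h groups.

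The other 3 are predicted genes that were higher under DTPA. Gm47995 was at 5.62 TPM at 0 h and 17.3, 15.4 and 16.8 TPM under DTPA, and the control libraries held 1.28, 2.09 and 2.46 TPM, a difference of 2.59. The gene 1700016F12Rik was at 41.6 TPM at 0 h and 152, 148 and 155 TPM under DTPA, and the control libraries held 19.8, 16.5 and 21.9 TPM, a difference of 2.91. The gene 3300005D01Rik was at 13.7 TPM at 0 h and 56.4, 59.2 and 57.3 TPM under DTPA, and the control libraries held 3.58, 3.85 and 2.36 TPM, a difference of 3.80.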

How the results depend on the processing

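With a minimum fold of 4 the calls against 0 h were 675 higher and 1312 lower, and with no minimum fold 3598 and 5594. The other alternatives kept the counts of 1888 and 3318 within 1.5 times, including 2106 and 3527 with a pseudocount of 0.1, 1299 and 2408 with a pseudocount of 5, and 1894 and 3317 with only the libraries compared. Leaving out each 24 h library in turn gave 1866 to 1914 higher and 3304 to 3344 lower against 0 h, and 2030 to 2361 higher and 3557 to 3799 lower against the control. The replicate block gave 1848 and 3314 against 0 h and 2182 and 3674 against the control, and pairing by number has no support in the deviations. Of 180 named genes, 172 were called and 136 kept the same call under every alternative that tested them, and none reversed. A pseudocount of 5 ended 14 of the calls, among them Bcl2, Cd68, Cd79a, Gzmb, Hbb-bh2, Hdc, Pf4, Pif1, Rps10, Slc39a3, Slc39a6, Slc39a13 and Srebf2, and one of 0.1 ended those of Hist1h2al and Platr32 and added that of Slc30a6. Median-of-ratios scaling ended 7 and quantile normalization 8. The replicate block ended the calls of Slc39a6 and Srebf2. Leaving out DTPA replicate 2 ended that of Srebf2 and added that of Slc30a6, and leaving out DTPA replicate 3 ended those of Slc39a6 and Srebf2. The single 0 h library could not be left out, and its own spread is not known. Low genes rest on few reads, and values under 1 TPM are imprecise.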
